A study of Homo sapiens with 7 samples.

Results

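Interferon-stimulated genes are the genes that a cell transcribes when an interferon binds its receptor. Here 47 of them were followed in 501Mel human melanoma cells whose labels name no interferon treatment. A gene was taken as a member when its name in the table equalled a name on the list. Of the 47 members, 41 had a row among the 21305 genes of the table. Of these, 30 reached a mean of at least 10 normalized counts over the 7 libraries and are called measurable below, and 11 did not. The other 6 members (MX2, GBP1, RSAD2, CMPK2, IFI44L and XAF1) were looked up among the promoters below, where 5 were found, and their expression was not analysed here.

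The study asked what loss of the long noncoding RNA GRASLND does to these cells, which carried doxycycline-inducible short hairpin RNAs (shRNAs). The control hairpin was shlacZ, directed at a bacterial gene (3 libraries), and the hairpins against GRASLND were sh4 (2 libraries) and sh8 (2 libraries). All 7 libraries, the controls included, carried a hairpin construct and were labelled dox-induced, so a library without either was not part of any comparison. The lines were puromycin-selected pools after lentiviral transduction, and the labels do not say whether replicates were separate cultures, so p-values measure the spread between these libraries alone.

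Type I interferons act through a receptor whose kinases, JAK1 and TYK2, phosphorylate STAT2. STAT2 and IRF9 are parts of the complex ISGF3, which binds the interferon-stimulated response element (ISRE) in the promoters of many of these genes. The gamma-activated site (GAS) is a separate element used in the response to interferon gamma. Cells also transcribe part of this set without any interferon, and some members, such as ISG15 and IFIT3, can also be induced by IRF3 directly.

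The reads recovered from the normalized counts numbered 13337317 to 22855232 per library. Reads outside the genes of the table are not in these numbers. GRASLND itself stood at 309, 330 and 290 normalized counts in the shlacZ libraries. It stood at 175 and 131 in sh4 and at 227 and 163 in sh8. Every knockdown library lay below every control library. The log2 difference was -1.02 ± 0.21 (SE) under sh4 (adjusted p = 0.00662), while the sh8 value was -0.68 ± 0.21 (adjusted p = 0.110, limma with Benjamini-Hochberg adjustment), so the sh8 difference did not pass. Without sh4 replicate 2 the sh4 difference did not pass either, at an adjusted p of 0.0772. All 8 melanocytic markers looked up were measurable, and their summed level was 136782 to 147761 normalized counts in shlacZ, 52428 to 60332 in sh4 and 102481 to 105489 in sh8. Of 6 leukocyte markers, CD68 alone was measurable (summed list 443 to 675 over all libraries), the 4 fibroblast markers summed to 6.28 to 19.4, and none of the 3 keratinocyte and 3 endothelial markers had a row.

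The letters that ISGF3 binds were present near the start of most members. Promoters from RefSeq (GRCh38.p14, 250 bases before to 50 bases after the start) could be matched to 37 of the 47 members. Of these, 24 (64.9%) held the ISRE letters TTTCNNTTTC on either strand, against 1255 of 35116 promoters (3.57%) in the whole RefSeq table. The GAS letters TTCNNNGAA, which read the same on both strands, were found in 10 of the 37 (27.0%), against 7.66% of all promoters. Matches could overlap each other, and a match is a description of the letters and not of a bound site.

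One 30-base stretch with an ISRE match (in capitals) is shown for 10 members that passed a test in the comparisons below, each on the strand of its gene and in hg38 coordinates. The first 6 are from members that were higher under sh4.

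ISG15, chr1:1013380-1013409: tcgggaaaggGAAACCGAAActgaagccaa

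IFIT3, chr10:89327865-89327894: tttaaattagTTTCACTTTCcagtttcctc

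DDX60, chr4:168318821-168318850: gtgctgaaggGAAACTGAAAcctaagtgct

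IFI6, chr1:27672288-27672317: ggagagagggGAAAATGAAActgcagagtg

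OAS3, chr12:112938321-112938350: agaaagaaacGAAACTGAAAgcagggaatt

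PARP14, chr3:122680800-122680829: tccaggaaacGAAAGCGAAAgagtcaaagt

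The next 3 are from members that were lower under sh4, and the last is from a member that differed between the hairpins.

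ISG20, chr15:88638937-88638966: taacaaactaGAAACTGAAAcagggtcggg

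HERC5, chr4:88457035-88457064: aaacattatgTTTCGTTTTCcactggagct

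MX1, chr21:41420559-41420588: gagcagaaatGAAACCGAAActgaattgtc

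DTX3L, chr3:122564322-122564351: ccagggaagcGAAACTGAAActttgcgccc

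The ISG15 match began 107 bases before the start, the IFIT3 match 122 bases, the DDX60 match 88 bases and the ISG20 match 69 bases before it. The MX1 match lay just past the start. STAT2 and OAS1, which were also higher under sh4, had no ISRE match in this window.

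Without interferon, the level of the measurable members covered most of the range of the transcriptome. Levels were compared between genes per kilobase of the canonical transcript. In shlacZ the median member stood at 106 normalized counts per kilobase and the median tested gene at 114. Members lay between percentiles 3.69 and 96.2 of the genes tested, and 13 of the 30 lay above the middle gene. IFI16, a sensor of DNA, was highest at 1570 ± 62.5 (SD, n = 3) normalized counts per kilobase. LGALS3BP, a secreted galectin-binding protein, followed at 1074 ± 109 and ADAR, which edits adenosine in double-stranded RNA, at 1035 ± 67.2, and these ranges overlapped. ISG20, a 3′ exonuclease, stood at 485 ± 42.2, STAT2 at 309 ± 55.5 and IFI6, a small mitochondrial protein, at 220 ± 35.5. The lowest were IRF1 at 9.27 ± 1.35, IFIT2 at 6.24 ± 3.83 and DDX60 at 4.51 ± 1.73, where the IFIT2 and DDX60 ranges overlapped. IFIT1 (41.5 ± 3.02), MX1 (53.4 ± 17.8) and ISG15 (60.3 ± 21.1) lay below the median member, while IFI6 lay above it. Members were not ranked by how strongly interferon induces them.

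**Figure D1:**
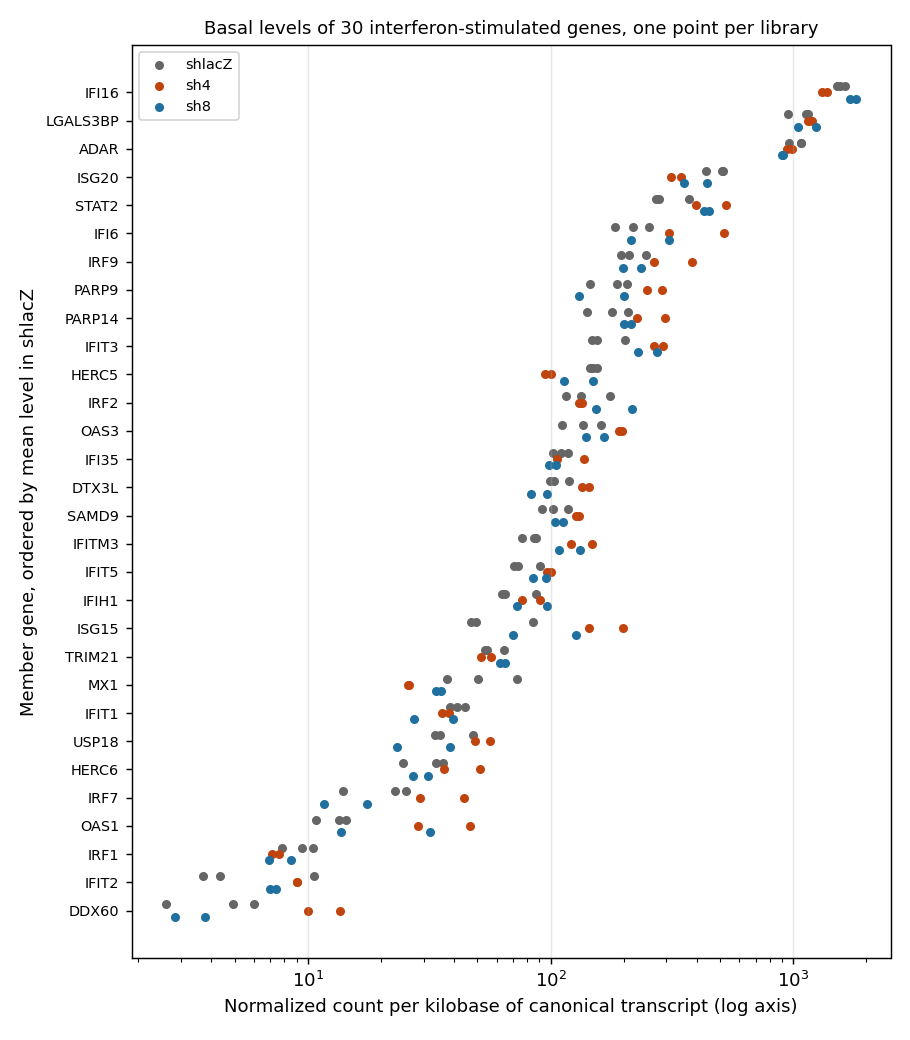
Each point is 1 library, the horizontal axis is the normalized count per kilobase of the canonical transcript on a log axis, and the 30 measurable members are ordered by their mean in shlacZ. Levels run from DDX60 at the bottom to IFI16 at the top, and the sh4 points of DDX60, OAS1 and ISG15 sit to the right of all 3 shlacZ points while those of HERC5, ISG20 and MX1 sit to the left.

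The 11 members below the minimum were IFITM1, IFITM2, OAS2, OASL, GBP2, GBP3, SAMD9L, TRIM22, IFI27, IFI44 and BST2. No library held more than 15 reads of any of them. Their summed level was 20.9 to 24.8 normalized counts in shlacZ, 38.8 to 44 in sh4 and 46.4 to 48.8 in sh8, sums to which TRIM22 and IFI27 gave 46 reads each over all libraries. TRIM22, an antiviral ubiquitin ligase, had 3, 2 and 3 reads in shlacZ, 2 and 10 in sh4 and 15 and 11 in sh8. IFITM1 had 0 reads in each shlacZ library, 9 and 2 in sh4 and 2 and 3 in sh8. At such counts these members were left out of the reported fits, so a difference was not tested there. Reads of IFITM1, IFITM2 and IFITM3 can be shared where these related genes are alike in sequence, which was not examined here.

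Upon GRASLND knockdown, with sh4 and sh8 pooled, 1 of the 30 measurable members passed an adjusted p of 0.05, where 4.61% of all 15420 tested genes passed. This was IFIT3, which binds foreign RNA together with IFIT1. Its log2 fold change (always of the normalized count + 1) was 0.67 ± 0.15 (SE, adjusted p = 0.0407, limma with Benjamini-Hochberg adjustment). The call was lost without any 1 library other than sh8 replicate 1. Without sh8 replicate 1, OAS1 and ISG15 passed as well, which made 3, where 7.42% of all tested genes passed. All 4 knockdown libraries lay above all 3 controls for 3 members (STAT2, IFIT3 and IFITM3), where 10.2% of all genes did so, and below them for 1 (MX1), where 11.0% did. The median log2 fold change of the members was 0.19 and that of all tested genes -0.01. In bulk RNA, fewer cells with a transcript and less of it per cell cannot be told apart.

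The hairpins were then compared with the control one by one, in 1 fit over the 3 groups. Under sh4, 11 of the 30 members passed (36.7%), where 22.5% of all tested genes passed. Of these, 8 rose (STAT2, IFIT3, DDX60, OAS1, OAS3, ISG15, PARP14 and IFI6), with a background of 10.5% of all genes, and 3 fell (ISG20, HERC5 and MX1), with a background of 11.9%. DDX60, OAS1 and ISG15 also passed a log2 fold change of 1 in size, as 8.16% of all genes did in either direction. Both sh4 libraries lay above all 3 controls for 18 members (25.1% of all genes) and below them for 6 (25.6% of all genes). The median log2 fold change was 0.41 for the members and -0.01 for all tested genes.

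The sh4 count rested on few libraries. It was 4 without shlacZ replicate 3 (14.9% of all tested genes passed there), 5 without shlacZ replicate 2 (14.6%) and 14 without shlacZ replicate 1 (31.5%). The share of all tested genes thus moved in the same direction, from 22.5% with all libraries. Without shlacZ replicate 1, IRF9, IFIT2, PARP9 and SAMD9 passed as well and OAS3 did not. The count also fell without either sh4 library, which left 1 in that group. The split also moved, from 8 higher and 3 lower to 2 higher and 3 lower without shlacZ replicate 2. It was 4 higher and 0 lower without shlacZ replicate 3. Each of the 11 members lost its call without at least 1 library. The calls of ISG15 and IFIT3 were lost only without one of the sh4 libraries, and that of DDX60 without these or shlacZ replicate 2. Those of ISG20, HERC5 and MX1 were lost without either sh4 library or shlacZ replicate 3, and that of OAS1 without either sh4 library or shlacZ replicate 2 or 3. STAT2 kept its call only without sh4 replicate 2 or shlacZ replicate 1, and PARP14 only without shlacZ replicate 1. When libraries were rescaled to equal totals, the split under sh4 was 11 higher and 1 lower. Limma-voom on recovered reads gave the same numbers, but it also scales by library totals and is not a separate check of the scaling. Over all genes the split went from 1624 higher and 1840 lower to 2178 higher and 1493 lower with the rescaling to equal totals. MX1 and ISG20 kept their direction there but did not pass. Under that rescaling the median of all genes under sh4 moved to 0.09 and the members' median to 0.51. With quantile normalization instead, the split of the members was 8 higher and 3 lower, with ISG20, HERC5 and MX1 the lower ones. Summed melanocytic markers moved in the same libraries as given above, and their part in these values was not tested.

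Under sh8, 0 of the 30 members passed in limma and 0 in limma-voom, where 2.92% of all tested genes passed in limma, and 2 (IFIT3 and STAT2) had an unadjusted p under 0.05. The lowest adjusted p was 0.0991, for IFIT3. Both sh8 libraries lay above all controls for 4 members (STAT2, IFIT3, IFITM3 and IFI16), where 16.5% of all genes did, and below for 3 (ADAR, MX1 and DTX3L), where 17.9% did. The members' median log2 fold change was 0.08. Without shlacZ replicate 1, STAT2 passed at a limma adjusted p of 0.0193, where 10.4% of all tested genes passed.

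Set directly against sh8, sh4 gave 2 of 30 members past the threshold, where 7.0% of all tested genes passed. They were DDX60, at 1.78 ± 0.44 (SE, adjusted p = 0.0391), and DTX3L, at 0.64 ± 0.16 (adjusted p = 0.0370), both higher under sh4. DDX60 alone also passed a log2 difference of 1 in size, as 3.19% of all genes did. Both calls were lost without any 1 of the 4 knockdown libraries and without shlacZ replicate 3, and that of DTX3L also without shlacZ replicate 2. For the other 28 members, a call under sh4 and none under sh8 was not a difference between the hairpins that passed.

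**Figure D2:**
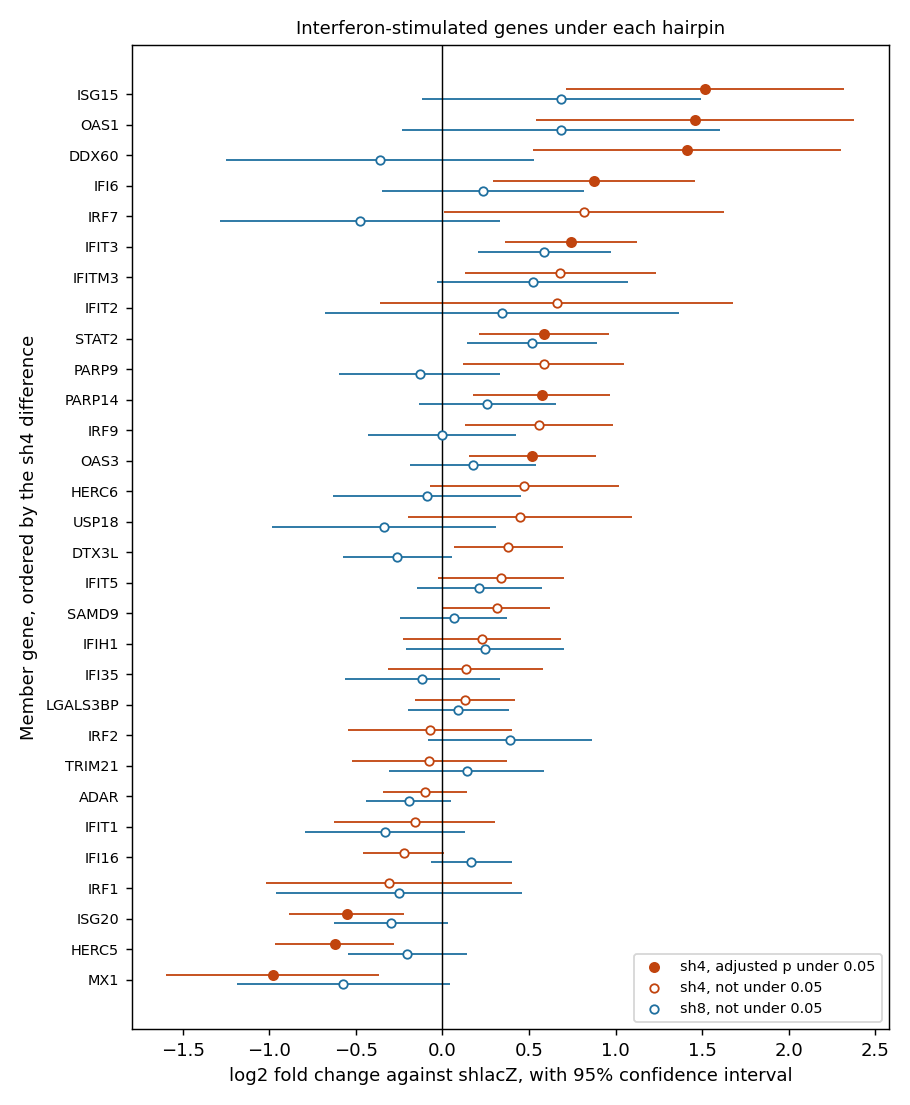
Points give the log2 fold change of each measurable member against shlacZ under sh4 (orange) and sh8 (blue), with bars for the 95% confidence interval, and filled points passed an adjusted p of 0.05. The sh4 points run from -0.98 (MX1) to 1.52 (ISG15) with 11 filled, no sh8 point is filled, and the sh4 and sh8 points of DDX60 are the farthest apart of the 30 members.

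Among the transcription factors, STAT2 was the member that passed. It stood at 1641, 1201 and 1235 normalized counts in shlacZ, at 2328 and 1757 in sh4 and at 1972 and 1887 in sh8. All 4 knockdown libraries lay above the controls, although sh4 replicate 2 exceeded shlacZ replicate 1 by little. The sh4 log2 fold change was 0.59 ± 0.17, with a limma adjusted p of 0.0322, and the sh8 value of 0.52 ± 0.17 did not pass (adjusted p = 0.135).

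IRF9, the DNA-binding part of ISGF3, stood at 404, 342 and 318 in shlacZ, 622 and 436 in sh4 and 385 and 323 in sh8. Only the sh4 libraries lay above the controls, and the difference of 0.56 ± 0.19 had an adjusted p of 0.0608 in limma. It passed when libraries were rescaled to equal totals. IRF7, which amplifies type I interferon production, had 26.8, 44 and 48.7 in shlacZ, 84.7 and 56.0 in sh4 and 22.4 and 33.7 in sh8. Its sh4 libraries were the highest of the 7, with a limma adjusted p of 0.135 against shlacZ and 0.0823 against sh8.

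IRF1, an activator that responds to interferon gamma, had 27.9, 33.5 and 37.4 in shlacZ, 27.1 and 25.4 in sh4 and 30.3 and 24.6 in sh8. IRF2, which competes with IRF1 for its sites, had 301, 262 and 396 in shlacZ, 305 and 295 in sh4 and 348 and 491 in sh8. For IRF2 every group overlapped with the controls, and for IRF1 both sh4 libraries lay below the controls, sh4 replicate 1 by less than 1 normalized count.

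IFIT3 was the member with the lowest adjusted p under each hairpin. It had 353, 484 and 370 normalized counts in shlacZ, 697 and 638 in sh4 and 548 and 656 in sh8, so all knockdown libraries lay above all controls. The log2 fold change was 0.74 ± 0.17 under sh4 (limma adjusted p = 0.0126) and 0.59 ± 0.17 under sh8. Its partners in the IFIT cluster on chromosome 10 did not pass: IFIT1 had log2 differences of -0.16 and -0.33 under sh4 and sh8, IFIT2 0.66 and 0.34, and IFIT5 0.34 and 0.21. IFITM3, a membrane protein that blocks virus entry, had 46.4, 53.4 and 52.2 in shlacZ, 90.3 and 73.9 in sh4 and 65.9 and 81.0 in sh8. No library of either hairpin overlapped with the controls, and the sh4 difference of 0.68 ± 0.25 had a limma adjusted p of 0.0741.

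Among the sensors, DDX60, a helicase that promotes RIG-I signalling, was low throughout. It had 36.1, 15.7 and 29.6 normalized counts in shlacZ, 81.3 and 60.5 in sh4 and 17.1 and 22.8 in sh8. The sh4 libraries were the highest of the 7 and the sh8 libraries lay among the controls. The log2 fold change was 1.42 ± 0.40 under sh4 (limma adjusted p = 0.0300) and -0.36 ± 0.40 under sh8. IFI16 had 4492, 4366 and 4721 in shlacZ, 3976 and 3776 in sh4 and 4938 and 5228 in sh8. Its libraries fell into the order sh4, shlacZ, sh8 without overlap, with differences of -0.22 and 0.17 that did not pass (limma adjusted p = 0.158 and 0.441). ADAR had 6332, 7113 and 7088 in shlacZ, 6218 and 6551 in sh4 and 5926 and 6014 in sh8, and IFIH1 (MDA5) lay between 225 and 347 in all libraries.

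The OAS enzymes make the 2′-5′ oligoadenylate that activates RNase L. OAS1 had 17.5, 22 and 23.5 normalized counts in shlacZ, 75.7 and 46.3 in sh4 and 22.4 and 51.9 in sh8. The sh8 libraries were split, with replicate 1 among the controls and replicate 2 above them. The sh4 difference was 1.46 ± 0.41 (limma adjusted p = 0.0299). OAS3 had 736, 897 and 1068 in shlacZ, 1295 and 1258 in sh4 and 928 and 1092 in sh8, with an sh4 difference of 0.52 ± 0.16 (adjusted p = 0.0463) that was lost without any 1 library other than shlacZ replicate 3.

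ISG20 went the other way, with 803, 691 and 811 in shlacZ, 548 and 498 in sh4 and 559 and 696 in sh8. Under sh4 it fell by 0.55 ± 0.15 on the log2 scale (limma adjusted p = 0.0247).

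ISG15 is a ubiquitin-like protein, HERC5 the ligase that attaches it and USP18 the protease that removes it. ISG15 had 29.9, 31.4 and 53.9 normalized counts in shlacZ, 126 and 91.8 in sh4 and 44.8 and 81.0 in sh8. Its sh4 libraries were the highest of the 7, and the log2 fold change of 1.52 ± 0.36 (limma adjusted p = 0.0147), a 2.86-fold rise, was the largest of the members. HERC5 had 545, 510 and 525 in shlacZ, 352 and 332 in sh4 and 399 and 523 in sh8. It fell by 0.62 ± 0.15 on the log2 scale under sh4 (adjusted p = 0.0178). The modifier and its ligase thus differed from the control in opposite directions in the same libraries. USP18 (0.45 ± 0.29) and HERC6 (0.47 ± 0.24) did not pass.

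MX1, a dynamin-like GTPase that traps viral nucleocapsids, had 201, 104 and 140 normalized counts in shlacZ, 72.3 and 71.6 in sh4 and 93.6 and 98.3 in sh8. All 4 knockdown libraries lay below all controls, whose own range was wide. MX1 fell by 0.98 ± 0.28 on the log2 scale under sh4 (limma adjusted p = 0.0295), and the sh8 difference was -0.57 ± 0.28 (adjusted p = 0.306).

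PARP9 and DTX3L form a complex that ADP-ribosylates and ubiquitinates proteins, and their genes lie head to head on chromosome 3, next to PARP14. PARP14 had 1611, 1084 and 1378 normalized counts in shlacZ, 2279 and 1743 in sh4 and 1551 and 1658 in sh8. Its sh4 difference was 0.57 ± 0.18 (limma adjusted p = 0.0438). DTX3L had 572, 596 and 687 in shlacZ, 832 and 775 in sh4 and 477 and 555 in sh8, so the groups were ordered sh8, shlacZ, sh4 without overlap. Against shlacZ neither its sh4 difference of 0.38 ± 0.14 (limma adjusted p = 0.0811) nor its sh8 difference of -0.26 ± 0.14 (adjusted p = 0.369) passed. PARP9 showed 0.59 ± 0.21 under sh4 (adjusted p = 0.0709) and -0.13 ± 0.21 under sh8.

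In the last groups, IFI6 had 207, 150 and 178 normalized counts in shlacZ, 422 and 250 in sh4 and 174 and 250 in sh8. The sh4 replicates differed widely, and the difference of 0.87 ± 0.26 (limma adjusted p = 0.0382) was lost without sh4 replicate 1 or shlacZ replicate 2 or 3. SAMD9, a growth and virus restriction factor, had 801, 629 and 697 in shlacZ, 889 and 865 in sh4 and 712 and 766 in sh8, and its difference of 0.31 ± 0.14 under sh4 did not pass. LGALS3BP had 2089, 2527 and 2477 in shlacZ, 2620 and 2540 in sh4 and 2300 and 2739 in sh8. TRIM21 and IFI35 had differences between -0.12 and 0.14 under either hairpin.

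Each library was also summarised over the 30 measurable members as the median log2 difference from the shlacZ mean. It was 0.39 and 0.32 in the sh4 libraries, -0.01 and 0.15 in the sh8 libraries and -0.00, -0.09 and 0.07 in the controls. Over all tested genes it stayed between -0.02 and 0.02 in all 7 libraries. By this median both sh4 libraries stood above the other 5, and sh8 replicate 1 stood within the controls, which themselves enter the shlacZ mean. The number of members above that mean did not separate sh4. It was 21 and 20 in sh4, 15 and 19 in sh8 and 15, 8 and 21 in the controls. Of all tested genes, 47.1% to 54.5% lay above it in the 7 libraries. Members with and without an ISRE match were both found among those that moved: of 17 measurable members with a match, 6 rose and 3 fell under sh4 (median 0.34), and of 9 without, 2 rose and 0 fell (median 0.47), against 10.5% of all genes that rose and 11.9% that fell.

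**Figure D3:**
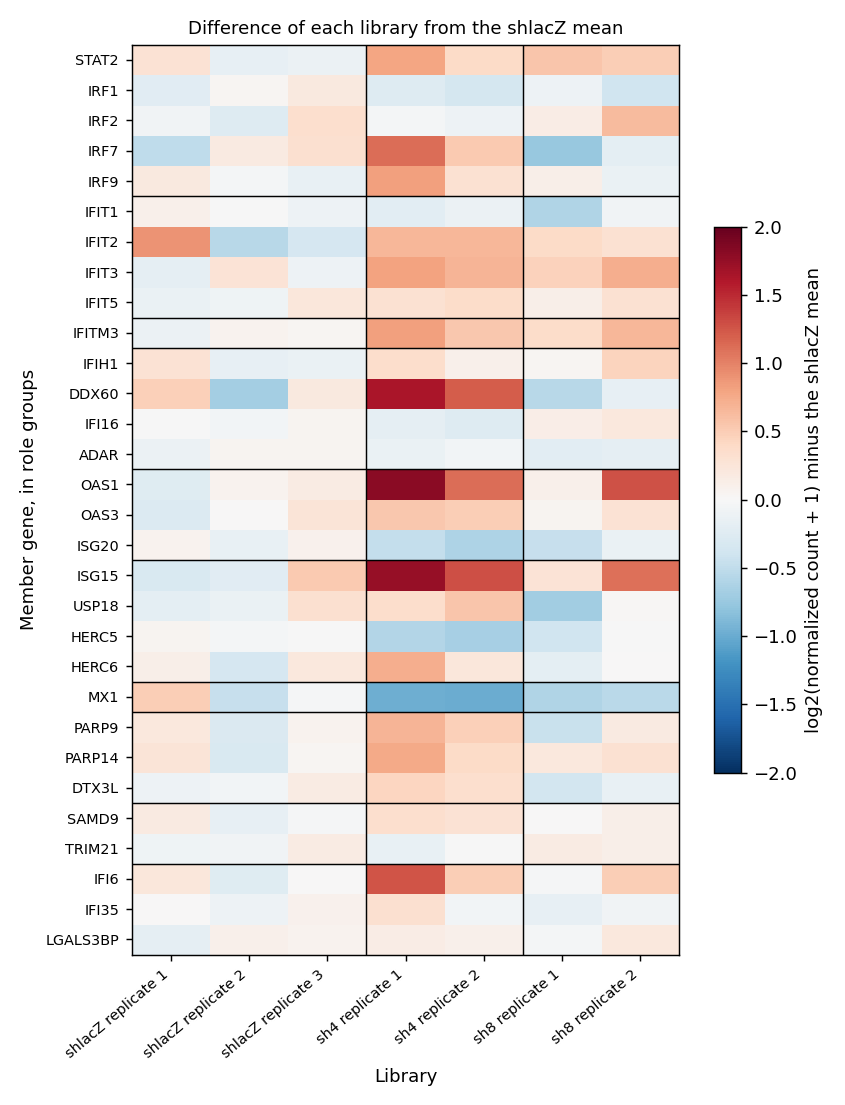
Colour gives log2(normalized count + 1) in each library minus the mean of the 3 shlacZ libraries, with the 30 measurable members in rows by role and the 7 libraries in columns. Red cells for ISG15, OAS1, DDX60 and IFI6 in the sh4 columns and blue cells for MX1, HERC5 and ISG20 are the members described above, and sh8 replicate 2 shows red for ISG15 and OAS1 where sh8 replicate 1 is near the controls.

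The other genes of the pathway came from separate lists. None of 21 interferon ligand genes, IFNB1 and IFNG among them, had a row in the table. Of 9 measurable receptor and JAK-STAT genes, 2 rose under sh4 and none fell, where 10.5% of all genes rose and 11.9% fell. JAK1, the kinase shared by all interferon receptors, had 2635, 2843 and 3145 normalized counts in shlacZ, 5335 and 5936 in sh4 and 3290 and 4226 in sh8. The sh4 difference was 0.97 ± 0.14 (limma adjusted p = 0.00127), and JAK1 was also higher under sh4 than under sh8 by 0.59 ± 0.15 (adjusted p = 0.0458), a call lost without any 1 library other than shlacZ replicate 1. IL10RB, a receptor chain for interferon lambda, rose by 0.68 ± 0.20 under sh4 (adjusted p = 0.0349), a call lost without any 1 library other than shlacZ replicate 1.

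Of 10 measurable genes of nucleic acid sensing, 4 rose under sh4, where 10.5% of all genes rose, and 1 under sh8, where 2.92% of all genes passed. STING1, the adaptor of cytosolic DNA sensing, had 15.5, 22 and 18.3 normalized counts in shlacZ, 61.0 and 73.9 in sh4 and 52.7 and 51.0 in sh8. The groups did not overlap, and STING1 rose by 1.81 ± 0.30 in sh4 (limma adjusted p = 0.00275) and by 1.45 ± 0.30 in sh8 (adjusted p = 0.0343). The sh8 call was lost without any 1 library other than shlacZ replicate 1, and the pooled call (1.63 ± 0.27, adjusted p = 0.0155) without shlacZ replicate 2 or 3. IKBKE, a kinase of IRF3 and IRF7, rose by 1.80 ± 0.24 under sh4, from 93.9, 143 and 148 in shlacZ to 405 and 482, against 121 and 163 in sh8. It was higher under sh4 than under sh8 by 1.65 ± 0.27 (limma adjusted p = 0.00679), which was lost without sh4 replicate 2 or sh8 replicate 1. RIGI, the sensor that DDX60 acts on, rose by 0.96 ± 0.20 under sh4 and MAVS, its adaptor, by 0.60 ± 0.13, and both calls were lost without either sh4 library. RIGI was also higher under sh4 than under sh8 by 0.88 ± 0.22 (adjusted p = 0.0410), a call lost without any 1 library other than shlacZ replicate 1.

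Of 5 measurable negative regulators, PIAS1 rose by 0.46 ± 0.11 and PTPN2, a phosphatase of JAK1, fell by 0.51 ± 0.13 under sh4, and both calls were lost without either sh4 library or without shlacZ replicate 2 or 3. A further list of 34 interferon-stimulated genes had 22 measurable, of which 1 rose and 3 fell under sh4 (10.5% and 11.9% of all genes) and 0 passed under sh8 in limma. SP100, a nuclear body protein, rose by 0.80 ± 0.15 (limma adjusted p = 0.00416). TDRD7 fell by 0.92 ± 0.13, PLSCR1 by 0.57 ± 0.13 and PNPT1 by 0.53 ± 0.14. The PLSCR1 call was lost without sh4 replicate 2, and the PNPT1 call without sh4 replicate 1 or shlacZ replicate 2 or 3. Between the hairpins, LAP3 was higher under sh4 by 0.68 ± 0.17 (limma adjusted p = 0.0415), lost without any 1 library other than shlacZ replicate 1, and TDRD7 lower (-0.91 ± 0.14, adjusted p = 0.00617), lost without sh4 replicate 2 or sh8 replicate 2. In the pooled comparison SP100 (0.64 ± 0.15) and PNPT1 (-0.52 ± 0.12) passed at adjusted p of 0.0433 and 0.0443. The first was lost without either sh4 library or shlacZ replicate 2 or 3, and the second without any 1 library other than sh8 replicate 1. The median of this list under sh4 was -0.21, where that of the 30 members was 0.41.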

How the data were processed

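RNA of 7 dox-induced 501Mel libraries was sequenced with rRNA depletion and a stranded library kit. According to the study's methods, the authors trimmed reads, aligned them to hg38 with STAR, quantified genes with Salmon within the zarp pipeline and compared groups with DESeq2. The file the authors deposited gives normalized counts per gene, with decimal commas, for 21305 genes, of which 4633 carry no symbol. Every gene has at least 10 reads in sum, so genes below that have no row. Dividing each library by its smallest step returned whole reads for 100% of values (tolerance 0.001), which gave the reads recovered over these genes. As these are normalized values and not raw counts, no count model was the main test.

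Values were analysed as log2(value + 1) with limma 3.58.1 (R 4.3.3), an empirical Bayes variance trend and Benjamini-Hochberg adjustment over the 15420 genes that averaged 10 or more. A fold change on this scale understates changes of low genes. Knockdown against shlacZ used a fit of 2 levels, and sh4, sh8 and their difference a fit of 3 groups over all 7 libraries. Both knockdown comparisons share the shlacZ libraries. Limma-voom on the recovered reads was added after seeing the data. The scripts were tested on simulated data. Lengths and positions came from GENCODE 44, in which 21281 gene IDs were found, and lengths are those of canonical transcripts.

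Members and lists were chosen with earlier results of these data known. All 47 members could be named. Values in every library are given for members past an adjusted p of 0.05 in any comparison, the 6 highest per kilobase in shlacZ, the transcription factors, and the highest member of a role group without any of these. Other pathway genes are named where they passed or are ligands, and individual low members were added after their values were seen. Values of 1 gene of the pathway lists are not reported here. Alternatives were other pseudocounts, minimum levels, scalings and variance models, a replicate block and leaving out each library.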

Additional observations from a re-analysis of the deposited data

Results flagged for a closer look

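A difference between the effects of the hairpins passed for 2 of the 30 measurable members, where 7.0% of all tested genes passed. Both calls were lost without shlacZ replicate 3 and in the other omissions given above. DDX60 was higher under sh4 than under sh8 by 1.78 on the log2 scale, and DTX3L by 0.64. Against the shlacZ libraries, DDX60 differed by 1.42 under sh4 and by -0.36 under sh8, and DTX3L by 0.38 and -0.26. No group holds 4 libraries except the pooled knockdown, in which 30 members were looked at for a single library far from the rest and none was found.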

How the results depend on the processing

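No log2 fold change of a member that passed turned its sign under the alternatives run. The balance of higher and lower calls under sh4 did turn, among the members without shlacZ replicate 2 (2 higher, 3 lower) and over all genes when libraries were rescaled to equal totals (2178 higher, 1493 lower, from 1624 and 1840). Shares in brackets are those of all tested genes that passed in the same fit. For the pooled knockdown, the 1 member of the reported fit (4.61%) became 0 without a variance trend (0.895%) and 0 with the replicate block (0.272%). It became 0 with a minimum log2 fold change of 1 (1.99%). Averaging both hairpins within the 3-group fit gave 5 (3 higher, 2 lower), where 16.4% of all genes passed. Leaving out 1 library gave 0 to 3, where 0.415% to 7.42% of all genes passed. The 11 members under sh4 (22.5%) became 6 without a variance trend (16.2%) and 3 with the minimum fold change (8.16%). Leaving out 1 shlacZ or sh8 library gave 4 to 14, where 14.6% to 31.5% of all genes passed. The sh4 count also fell without either sh4 library. The 0 members under sh8 (2.92%) became 0 to 1, the 1 without shlacZ replicate 1 (10.4%). The 2 members that differed between sh4 and sh8 (7.0%) became 4 with the 2 groups fitted alone (9.57%) and 1 with a minimum mean of 50 (9.05%). They became 0 without a variance trend (3.09%) and 1 with the minimum fold change (3.19%). Leaving out 1 shlacZ library gave 0 to 5, where 5.50% to 12.8% of all genes passed. This count also fell without any 1 knockdown library. The minimum mean of 50 left out DDX60. The cause of the other changes, those from omitting libraries included, was not tested. The measurable members numbered 30 whichever library was left out.

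Replicate numbers were not treated as pairs, since the hairpin groups share only 2 numbers with shlacZ. Across tested genes, the differences of replicate 1 minus replicate 2 correlated at 0.31 (shlacZ and sh4), 0.03 (shlacZ and sh8) and 0.03 (sh4 and sh8). What the value of 0.31 comes from was not tested. With the replicate block, 10 members passed under sh4 (8 higher, 2 lower), where 21.9% of all genes passed. With 2 libraries per hairpin, a member change that misses the threshold is not shown to be absent, and the median SE of the members was 0.20 log2 units for either hairpin.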
